A study of Mus musculus with 12 samples.

Results

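RNA sequencing was used to ask which transcripts of TGF-β-activated cardiac fibroblasts change when linker histone H1.0 is depleted. The comparison took 6 of the 12 libraries of the series, chosen by their labels. Primary cardiac fibroblasts from wild type adult C57BL/6J mice of both sexes were transfected with scramble siRNA (3 libraries) or with H1.0 siRNA (3 libraries), and all 6 cultures then received TGF-β at 10 ng per ml in low serum. The other 6 libraries came from cultures given the same siRNAs followed by vehicle, with 3 libraries per siRNA. They shared the model fit and served to test whether the siRNA effect differed with and without TGF-β. Each arm received 1 siRNA reagent, so an effect of the reagent itself and the loss of H1.0 cannot be told apart. The cultures were cardiac fibroblasts grown through expansion in serum and a fibroblast growth factor, and the study's methods call the 3 replicates of a group biological, although the animals behind each are not named.

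Linker histones bind the nucleosome where DNA enters and leaves it and help to fold chromatin. H1.0 is the linker histone of cells that divide little, and several other linker histones are made mainly while DNA is being replicated. TGF-β turns resident cardiac fibroblasts into myofibroblasts. These cells build contractile stress fibers from smooth muscle actin and its partner proteins and secrete the collagens, fibronectin, elastin and matricellular proteins of scar tissue.

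H1.0 transcript was depleted in every library labelled H1.0 siRNA. H1f0, the gene for H1.0 (ENSMUSG00000096210.2, chromosome 15 from 79028450 to 79030504 in mm10), had normalised read counts of 2832, 2922 and 2807 in the scramble libraries and 843, 876 and 510.3 in the H1.0 siRNA libraries. The groups did not overlap, and the log2 fold change was −1.98 (SE 0.16, adjusted p = 3.4e-06 by edgeR's quasi-likelihood test). A normalised read count here is the deposited estimated count of a gene scaled for library size and composition, and an adjusted p under 0.01 is referred to as a call. Among the other 6 linker histone genes, 4 also fell and none rose. The replication-linked variants Hist1h1a (−2.83, adjusted p = 1.4e-06), Hist1h1b (−2.01) and Hist1h1d (−0.92) were lower. H1fx was lower too (−0.69, adjusted p = 0.0068), but its call was lost when any of 7 single libraries was left out and when only protein-coding transcripts were summed. Hist1h1c, the gene for H1.2, had counts of 2527, 2969 and 2657 against 2351, 2484 and 2147, a log2 difference of −0.22 that was not called (adjusted p = 0.046). Hist1h1e was not called either (−0.04).

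The libraries held 19.9 M to 36.3 M estimated counts, and the 3 H1.0 siRNA libraries given TGF-β (36.2 M to 36.3 M) were deeper than their scramble partners (19.9 M to 24.3 M). With every library thinned to the lowest total, 2835 genes were called lower and 2894 higher. Summed over 12 markers, cardiac fibroblast identity genes stood at 21430 to 24461 TPM in the scramble and 20482 to 23185 TPM in the H1.0 siRNA libraries. Behind these sums, 7 of the 12 were called lower, 3 higher and 2 not, with a median log2 fold change of −0.48. The 20 macrophage markers summed to 1398 to 1466 TPM and 920.0 to 1392 TPM, with Cd68 at 1012 ± 41.5 and 919 ± 147 normalised counts. The 12 lymphocyte markers summed to 5.6 to 13.8 TPM over the 6 libraries, and the T cell receptor genes Cd3e, Cd3d and Cd3g did not pass the minimum count. Summed endothelial markers lay between 46.6 and 72.4 TPM. Of the cardiomyocyte markers only Tnnt2 was above 100 normalised counts: Myh6 had group means of 7.34 and 2.57, and Tnni3 of 13.3 and 19.4.

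Of 18028 genes tested, 2879 (16.0%) were called lower and 3179 (17.6%) higher after H1.0 siRNA under TGF-β, 6058 (33.6%) in either direction. The shares of 16.0% and 17.6% are the background against which the count of every gene list below is to be read. The fit compared libraries of the same replicate number, a term called the replicate block here, and without that block 2038 genes were called lower and 2343 higher. The lower calls were the larger in size. The median log2 fold change was −0.81 among genes called lower, 0.50 among those called higher and 0.03 over all genes tested. At least 2-fold, 1187 genes (6.58%) were lower and 399 (2.21%) higher. At least 4-fold, 372 were lower and 51 higher, and at least 8-fold 108 were lower and 19 higher. A change under 1.5-fold made up 1002 of the lower and 1960 of the higher calls. The normalised counts of the groups did not overlap for 2591 of the genes called lower (90.0%) and 3006 of those called higher (94.6%). The share over all genes tested is not given here, so these counts are no evidence beyond the calls.

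**Figure D1:**
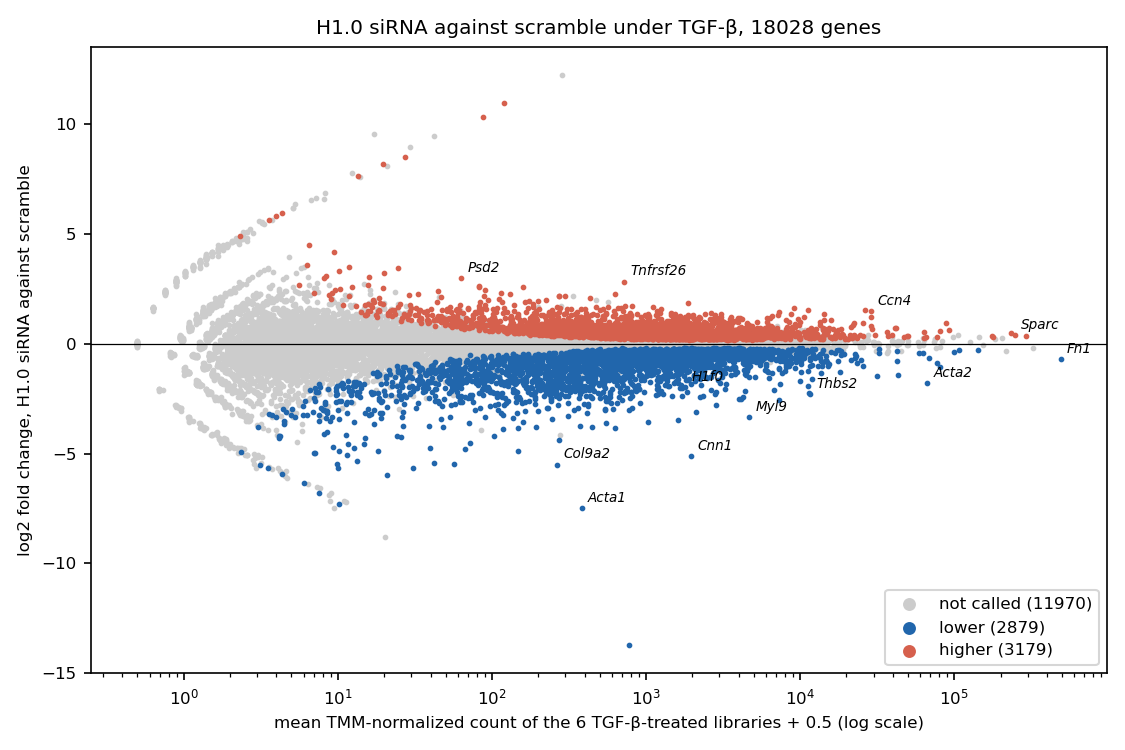
Log2 fold change of H1.0 siRNA against scramble under TGF-β for each of 18028 genes, plotted against the mean normalised count of the 6 libraries on a log scale. Blue points are the 2879 genes called lower, red the 3179 called higher and grey the rest, and the blue points reach further from 0 than the red ones at counts above 100.

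The widest falls were ranked among called genes averaging at least 100 counts in a group, without overlap between the groups and without provisional names. The first 20 of these genes had varied roles. Acta1, the skeletal muscle α-actin gene (chromosome 8 from 123891769 to 123894751), had counts of 472, 805 and 1012 in the scramble libraries and 2.33, 7.71 and 2.33 after H1.0 siRNA, a log2 fold change of −7.47 (SE 0.29). Col9a2, which encodes a cartilage collagen chain, fell from a mean of 518 ± 172 to 11.1 ± 1.96 (SD, n = 3 each; log2 fold change −5.50). Every scramble library was above every H1.0 siRNA library for both genes, which the limits of this list required. Further genes with falls over 8-fold were the nuclear receptor gene Esrrg (−4.90), the complement gene C7 (−4.39), the WNT ligand gene Wnt16 (−4.19), the cell adhesion gene Mcam (−3.45) and the muscle gene Popdc2 (−3.89). Rasef (−5.45), Ano5 (−4.52), Lrrc17 (−3.85), Fam84a (−3.84) and Prss35 (−3.80) belonged to the same range. The widest rises within the same limits were smaller. They were led by Psd2 (2.99), the death receptor family gene Tnfrsf26 (2.83), Megf11 (2.62), the WNT feedback gene Axin2 (2.57), Clec3b (2.46), Hephl1 (2.32), Gpat3 (2.25) and the sphingomyelinase gene Smpd3 (2.24).

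Cell division genes fell together. All 30 mitosis genes on the list were called lower, against 16.0% of all genes tested. Their log2 fold changes ran from −2.61 to −1.11 around a median of −2.07. Because the RNA came from whole cultures, fewer dividing cells and less transcript per dividing cell cannot be told apart. Ccnb1, the cyclin that drives entry into mitosis, had counts of 767, 983 and 1161 in the scramble and 172, 156 and 144 in the H1.0 siRNA libraries (log2 fold change −2.61, SE 0.21, adjusted p = 3.8e-06). All 3 libraries with H1.0 siRNA lay far under the lowest scramble library. Cyclin A2 (Ccna2, −2.37), the mitotic kinase gene Plk1 (−2.36), the spindle midzone gene Prc1 (−2.30) and the proliferation marker Mki67 (−2.27) behaved alike. So did Foxm1 (−1.81) and Mybl2 (−1.87), transcription factors of the mitotic program.

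DNA replication genes were lower for 38 of 41 members, with a median of −1.54. The 6 subunits of the MCM helicase, which unwinds DNA at the fork, fell by log2 values between −2.35 (Mcm3) and −1.66 (Mcm7). Mcm3 had counts of 1869.8, 1856 and 2053 against 363, 333 and 444, with no overlap. Rrm2, the regulated subunit of ribonucleotide reductase, which makes deoxyribonucleotides, had 1446, 1532 and 1784 against 235, 219 and 279 (log2 fold change −2.70, SE 0.15). Its partner subunit gene Rrm1 was the only member that rose, from 4308, 4521 and 6206 to 6520.5, 5706 and 8174 (0.44). Those groups overlapped across replicates, each H1.0 siRNA library being above its scramble partner, and the Rrm1 call was lost without the replicate block. The remaining 2 members, Rfc2 (−0.09) and the transcription factor gene E2f1 (−0.10), were not called. The S-phase cyclins Ccne1 (−2.31) and Ccne2 (−2.42), the origin recognition gene Orc1 (−2.33) and the sliding clamp gene Pcna (−1.42) fell.

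Genes that hold the cell cycle back were called in both directions. Of 22 CDK inhibitors and p53 targets, 5 were lower (22.7%, against 16.0%) and 6 higher (27.3%, against 17.6%), with 3 higher without scramble replicate 2 or H1.0 siRNA replicate 1 or 2 of the TGF-β groups. Cdkn1a, which encodes the CDK inhibitor p21, rose from 6566, 5689 and 7151 to 16171, 15172 and 13032 (1.20, SE 0.11, adjusted p = 7.5e-06). All H1.0 siRNA libraries were above all scramble libraries. Cdkn2b, the gene for p15, rose as well (1.36), while Cdkn2c (−1.21) and Cdkn2d (−0.97), which encode related inhibitors, fell. The p53 target Pmaip1, which promotes cell death, was lower (−2.68), and Mdm2 (−0.03) and Bax (0.05) were not called. Cyclin D1 (Ccnd1) fell from 2017, 1783 and 2708 to 1117, 816 and 1263 (−1.03).

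Transcripts of the replication-dependent core histones, which package new DNA and many of whose genes are clustered on chromosome 13, were lower too. This set was assembled by gene name after the values were seen, and it includes Hist3h2bb-ps, which is named as a pseudogene and was not called. Of 60 such genes tested, 50 were called lower, 1 was called higher and 40 were at least 2-fold lower. Their median was −1.74 on the log2 scale. Their normalised counts summed to 30451, 33149 and 33600 in the scramble libraries and to 15586, 14888 and 14210 in the H1.0 siRNA libraries. Many of these genes are near copies of one another, so the split of reads among them is uncertain. Runs of 12 and 8 neighbouring histone genes at least 2-fold lower lay on chromosome 13 at 21715763 to 21789213 and 23744973 to 23764406 (mm10). Among 9 replacement core histones, which are deposited outside replication, 5 were lower. These included the centromeric Cenpa (−1.95), H2afx (−0.77), H2afz (−0.70) and H3f3a (−1.05).

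Some promoters of the replication and mitosis lists hold motifs known from cell cycle control. E2F factors act on genes of the S phase, and the CHR element with nearby CCAAT boxes marks genes of mitosis. In 250 bases upstream of the RefSeq start site, on either strand, the E2F site (TTTCCCGC or TTTGGCGC) occurred in 6 of 40 promoters of the replication list (15.0%), in 0 of 27 of the mitosis list and in 2.1% of 15693 promoters of tested genes. The CHR element (TTTGAA or TTCGAA) occurred in 11 of 27 mitosis promoters (40.7%) against 13.2% of all. The CCAAT box occurred in 20 of 27 mitosis promoters (74.1%), but also in 57.5% of replication and 57.1% of smooth muscle promoters, against 34.8% of all. A match is a description of the sequence and not evidence of binding. A pair of each kind is printed 5′ to 3′ on the coding strand (RefSeq, GRCm38.p6), with the motif in capitals: Mcm5 at chr8:75109304-75109423 (plus strand) and Mcm6 at chr1:128359706-128359825 (minus strand) for the E2F site, and Cdc20 at chr4:118437344-118437463 (minus strand) and Ube2c at chr2:164769809-164769928 (plus strand) for the CHR element. The log2 fold changes of these genes were −2.18 (Mcm5), −1.71 (Mcm6), −1.99 (Cdc20) and −2.12 (Ube2c).
Mcm5: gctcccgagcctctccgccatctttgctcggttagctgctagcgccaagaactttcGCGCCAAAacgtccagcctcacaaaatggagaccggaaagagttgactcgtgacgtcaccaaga
Mcm6: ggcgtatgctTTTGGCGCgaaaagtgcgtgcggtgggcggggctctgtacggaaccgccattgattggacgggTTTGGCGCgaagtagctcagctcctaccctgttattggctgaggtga
Cdc20: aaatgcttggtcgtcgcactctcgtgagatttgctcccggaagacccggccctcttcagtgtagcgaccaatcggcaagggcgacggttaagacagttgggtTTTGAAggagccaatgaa
Ube2c: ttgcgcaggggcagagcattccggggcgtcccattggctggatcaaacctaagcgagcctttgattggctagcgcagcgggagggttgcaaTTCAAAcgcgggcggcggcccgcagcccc

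Contractile genes made up a further large group of falls. Of 22 smooth muscle contractile genes, 14 were lower and 3 higher, with a median of −0.81. Leaving out 1 library at a time gave 12 to 15 lower genes, and the other settings tried gave 8 to 15. Without the replicate block 11 were lower and 1 higher. Cnn1, the actin-binding protein calponin (chromosome 9 from 22099216 to 22109630), had 3070.4, 4659 and 3602 counts in the scramble and 48.9, 299 and 52.8 in the H1.0 siRNA libraries (log2 fold change −5.12, SE 0.40, adjusted p = 3.0e-06). Replicate 2 retained the most Cnn1 transcript among the H1.0 siRNA libraries. It lay under every scramble library, as the limit to genes without overlap required when Cnn1 was picked. Myl9, the regulatory light chain of smooth muscle myosin, had 8292, 8203 and 8751 against 659, 1416 and 606 (−3.35). Acta2, the smooth muscle α-actin gene (chromosome 19 from 34241090 to 34255590), had 109340, 109270 and 93652 against 29622, 33981 and 26311 (−1.80, SE 0.11). The smooth muscle myosin heavy chain gene Myh11 (−3.77), Tpm2 (−2.44), Lmod1 (−2.43), the myosin kinase gene Mylk (−1.66) and Tagln (−1.48) also fell. Myh11 and Mylk lost their calls without the replicate block. Cald1, which encodes caldesmon, rose (0.56). The other 2 higher calls, non-muscle myosin Myh9 (0.29) and Cnn3 (0.26), were lost when any of 7 and of 9 single libraries was left out. Mural cell markers share Cnn1, Myh11 and Mcam with these genes, and 7 of 12 were lower (3 without the block) and none higher. Their summed level was 620.3 to 762.4 TPM in the scramble and 178.6 to 261.7 TPM in the H1.0 siRNA libraries, and its part in the contractile genes was not tested.

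**Figure D2:**
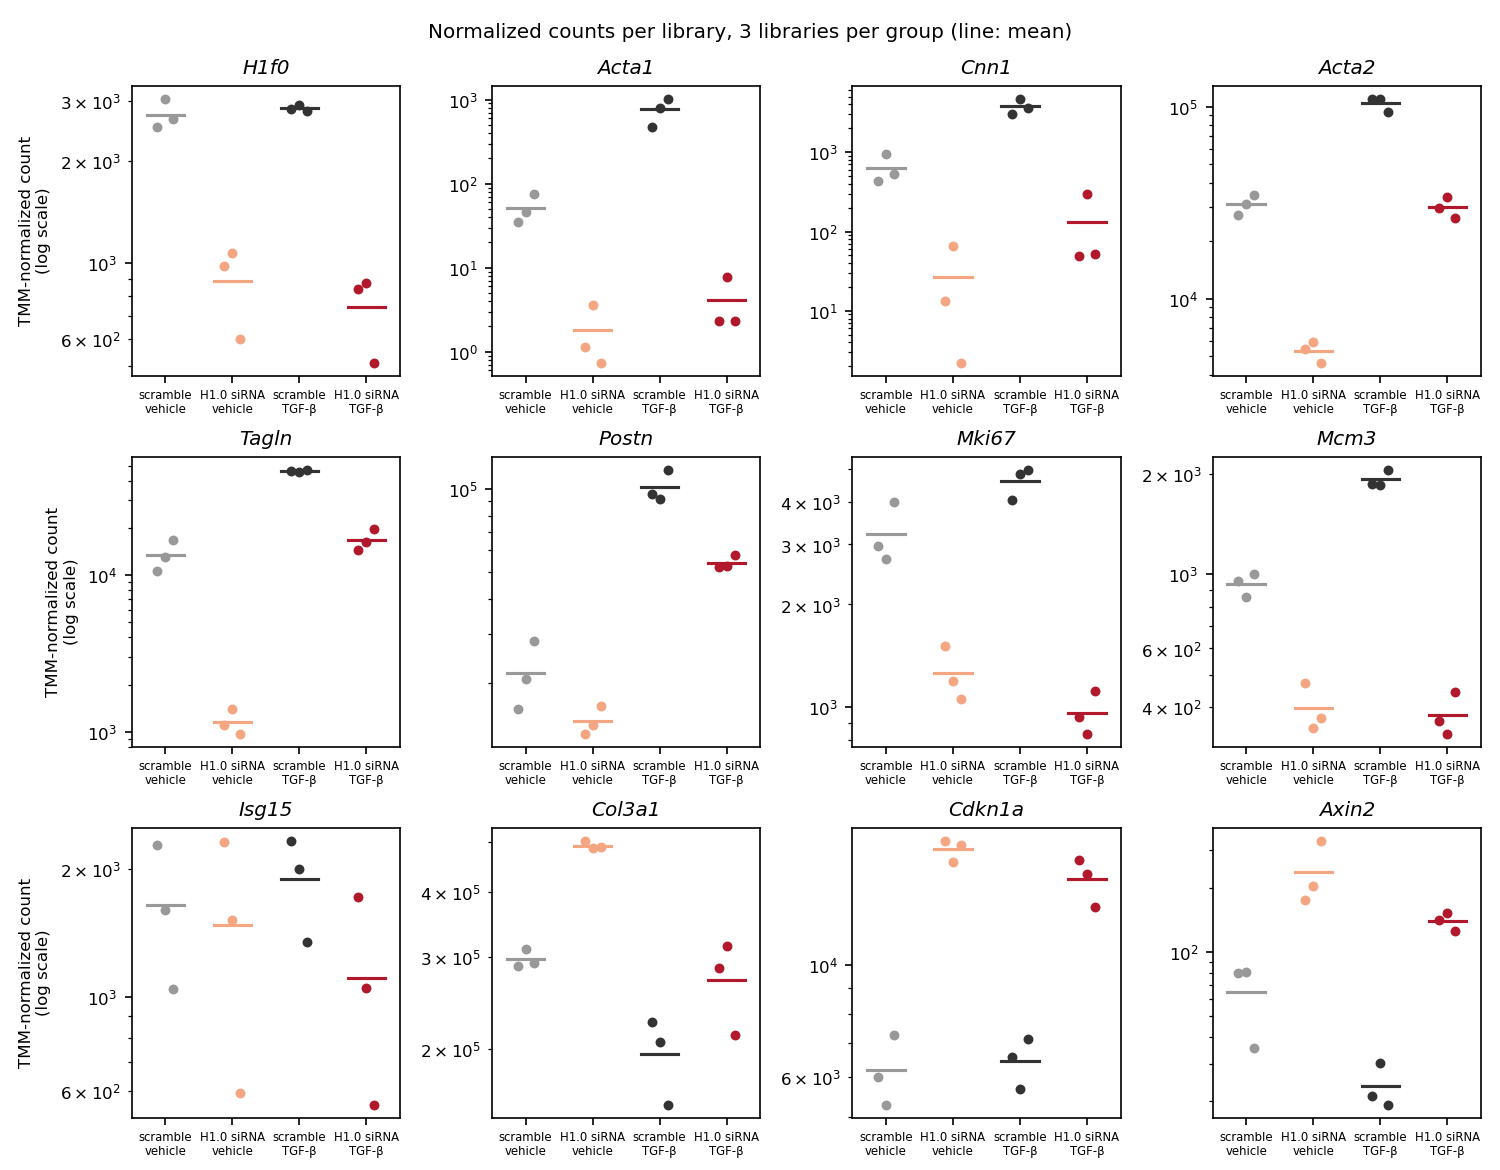
Normalised counts of 12 genes in each of the 12 libraries on log axes, with points for libraries and lines for the mean of the 3 libraries of a group. In the TGF-β groups all scramble points lie above all H1.0 siRNA points for H1f0, Acta1, Cnn1, Acta2, Tagln, Postn, Mki67 and Mcm3, the order is turned for Cdkn1a and Axin2, and the points overlap for Isg15 and Col3a1.

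Tnnt2, cardiac troponin T, fell from 2165, 1696 and 1835 to 147, 173 and 159 (−3.57). Of 27 actin and actin cytoskeleton genes, 12 were lower (44.4%) and 5 higher (18.5%, near the 17.6% of all genes, and 2 without the block). The lower ones included enteric actin Actg2 (−3.27) and the formin Diaph3 (−1.68), and the higher ones the formin Diaph1 (0.32) and Lasp1 (0.53). Tmsb4x, which sequesters actin monomers, was lower (−0.88). Among adaptors that tie actin to adhesions, 8 of 22 were lower (36.4%, and 5 without H1.0 siRNA replicate 1), such as Lims2 (−1.37) and the paxillin gene Pxn (−0.82). Another 4 were higher (18.2%, near the 17.6% of all genes), such as Tns3 (0.86) and Ilk (0.45). Of 19 integrins, 4 were lower (21.1%, near the 16.0% of all genes, and 2 without the block) and none higher. The lower ones included Itgav (−1.03), whose heterodimers can release latent TGF-β, and Itga7 (−1.20). Thy1, a fibroblast surface marker, fell from 945, 1171 and 2227 to 125, 245 and 184 (−2.90). Mrtfb, a cofactor of serum response factor, was lower (−1.52), and so was Fhl2 (−1.55).

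Serum response factor binds the CArG box, the motif shared by many smooth muscle genes. It occurred upstream of 3 of 21 promoters of the smooth muscle list (14.3%) and 3 of 29 of the actin list (10.3%), against 1.17% of all promoters searched. The windows of Acta1 at chr8:123894784-123894903 (minus strand) and Myl9 at chr2:156775248-156775367 (plus strand) carry it in capitals. They are shown because their falls were wide (−7.47 and −3.35). The other 4 genes with a match moved less or were not called: Myl6 was lower (−0.29, a call lost when any 1 of 4 libraries was left out), and Actc1 (−1.90, adjusted p = 0.19), Cnn2 (0.19) and Actg1 (0.18) were not called.
Acta1: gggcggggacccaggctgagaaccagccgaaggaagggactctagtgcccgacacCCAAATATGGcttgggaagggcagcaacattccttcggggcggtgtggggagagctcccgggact
Myl9: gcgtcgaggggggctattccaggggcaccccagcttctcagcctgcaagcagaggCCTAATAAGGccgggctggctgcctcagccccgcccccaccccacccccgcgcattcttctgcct

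Matrix genes split by class. The major fibrillar collagens of the heart did not fall in step with the contractile genes. Col1a1 had 336010, 365830 and 348980 counts against 273290, 325900 and 310990, a log2 difference of −0.21 that was not called (adjusted p = 0.038; called lower with DESeq2, adjusted p = 0.000556). Col5a1 rose from 71653, 78575 and 66896 to 102120, 114260 and 121110 (0.63), and Col5a3 rose too (1.25). Col3a1 (0.47, adjusted p = 0.007) and Col1a2 (0.34, adjusted p = 0.0033) passed the threshold narrowly. Each lost its call without the block and when any 1 of 5 libraries was left out, among them scramble replicates 2 and 3 and H1.0 siRNA replicate 2 under TGF-β, with an adjusted p up to 0.0447 for Col3a1 and 0.0217 for Col1a2. The minor fibrillar collagens Col24a1 (−4.80), Col27a1 (−2.14), Col11a1 (−1.59) and Col11a2 (−1.35) fell. Among other collagens, 7 of 15 were lower and 2 higher (none higher without the block). The chains of collagen VI moved apart, Col6a3 falling (−2.58) and Col6a1 (0.83) and Col6a2 (0.95) rising.

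Matricellular, elastic and cartilage-type matrix genes were called lower more often than higher. Postn, which encodes periostin and marks activated cardiac fibroblasts, had 95917, 91980 and 116380 against 52230, 52839 and 57511 (−0.90, SE 0.11). Fn1, fibronectin, had 690060, 646300 and 502810 against 359970, 413420 and 342210 (−0.71). In both genes every scramble library exceeded every H1.0 siRNA library. Of 25 matricellular genes 10 were lower (6 without the block) and 2 higher: the thrombospondins Thbs2 (−2.29) and Thbs4 (−1.60), Smoc2 (−2.03) and Matn2 (−1.04) fell, and Ccn4 (1.47) and Sparc (0.41), a collagen-binding protein, rose. Of 19 cartilage and tendon matrix genes 13 were lower and none higher (median −1.18), including the tendon gene Tnmd (−2.84) and the aggrecan gene Acan (−2.81). Without the replicate block 7 remained called. Of 17 elastic fiber genes 9 were lower (5 without the block). Elastin itself (Eln) ran from 67434, 76127 and 39878 to 19459, 43129 and 12845, where scramble replicate 3 lay under H1.0 siRNA replicate 2 and the groups overlapped. Ltbp1, which stores latent TGF-β in the matrix, fell (−2.10).

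Proteoglycan genes were lower for 14 of 27 members, 8 without the replicate block. Aspn (−1.63), Lum (−1.21) and Gpc3 (−1.68) fell, while Dcn, which encodes decorin, rose from 15666 ± 1509.8 to 28148 ± 2316 (SD, n = 3 each; 0.85) and Sdc4 rose (0.88). Enzymes that process and crosslink collagen were higher for 9 of 23 members and lower for 6, but only P4ha2 and Crtap of the higher ones remained called without the block. P4ha2, a prolyl hydroxylase, and Crtap rose (0.80 and 0.51), and the hydroxylase P3h2 and the elastin crosslinker Loxl1 fell (−2.53 and −0.77). Of 39 matrix proteinases and inhibitors 14 were lower (8 without the block, 9 without scramble or H1.0 siRNA replicate 1 of the TGF-β groups) and 5 higher. The proteinases Adamts16 (−2.74) and Mmp16 (−2.31) fell. Mmp14 (0.58), the membrane collagenase, Mmp11 (0.84) and the inhibitor Timp1 (0.93) rose, Timp1 from 16041, 15388 and 21171 to 30352, 27761 and 43278.

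Within the TGF-β pathway, several ligands and inhibitors fell and Tgfbr2, Smad2 and Smad4 were not called. Of 27 genes, 8 were lower (29.6%, against 16.0% of all genes, and 6 without the block) and 1 higher (3.7%, against 17.6%). Tgfb2 had 5309, 5008 and 5088 against 1509, 1628 and 1253 (−1.82, SE 0.098, adjusted p = 3.3e-07) and Tgfb3 had 7445, 7366 and 7048 against 3671, 4273 and 3342 (−0.96). Neither gene's groups overlapped. The receptor gene Tgfbr1 was called lower (−0.43), a call lost without the replicate block and when any 1 of 5 libraries was left out, and Tgfbr2 was not called (−0.38; called lower with DESeq2, adjusted p = 0.00158). Smad3, which carries the signal to the nucleus, was the gene that rose, from 1223, 1311 and 1361 to 2353, 2284 and 2724 (0.91), and Smad2 (−0.07) and Smad4 (0.14) were not called. The inhibitory Smad6 (−1.11), Bambi (−0.95) and Pmepa1 (−0.78) fell, and Smad7 was not called (0.18). In the BMP pathway 11 of 27 genes were lower and 2 higher, among them the target Id1 (−1.54) and the ligands Bmp4 (−1.12) and Bmp3 (−2.72), but 4 of the 11 remained called without the replicate block (Bmp3, Smad1, Id1 and Id2).

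WNT genes were lower for 13 of 39 members (33.3%) and higher for 6 (15.4%, near the 17.6% of all genes), with 6 and 1 without the block. Axin2, a negative feedback gene switched on by β-catenin, rose from 21.2, 30.3 and 19.3 to 140.4, 152 and 125 (2.57, SE 0.36). The ligand gene Wnt16 fell from 206, 165 and 209 to 5.43, 12.3 and 14.8, and the secreted inhibitors Frzb (−1.52) and Sfrp2 (−2.39) and the receptor gene Ror2 (−1.59) fell with it. Groups did not overlap for Axin2 or Wnt16, both of which were picked among genes without overlap. Among growth factor genes, Hgf (−1.05), the epithelial mitogen Fgf7 (−1.09), Pdgfd (−1.15), Angpt1 (−1.08), Igf2 (−1.82) and Tgfa (−1.02) fell, and Fgf2 rose (1.24). FGF and HGF family genes were lower for 7 of 16 (43.8%), EGF family genes for 6 of 19 (31.6%) and IGF axis genes for 5 of 16 (31.2%). Higher members of these lists numbered 2, 1 and 3. Without the block 3, 2 and 3 members were lower, and Fgf7 and Sfrp2 lost their calls. Among receptors, Fgfr3 (−1.92), the VEGF receptor gene Flt4 (−1.98) and Tek (−1.22) fell, and Insr (0.81) and Igf1r (0.47) rose. None of the 20 PDGF and VEGF family genes was higher and 9 were lower (45.0%, against 16.0% of all genes, and 7 without the block). In the endothelin and natriuretic systems the receptor gene Ednra had 348, 458 and 241 against 32.6, 104 and 13.2 (−3.06), Npr3 fell (−2.16) and the converting enzyme gene Ece1 rose (0.94).

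Guidance genes, which steer cell migration, were lower for 18 of 35 members and higher for 4 (2 higher without the block). Sema3e (−1.97), Epha7 (−1.87) and Sema3c (−1.73) fell, and the receptor gene Robo2 rose from 206, 211 and 259 to 708, 485 and 592. Chemokines were called lower for 5 of 23 (21.7%, near the 16.0% of all genes, and 2 without the block) and higher for 2. The lower ones included Cxcl5 (−3.01) and Cxcl12 (−2.23). Ion channel genes were lower for 7 of 26 (26.9%, against 16.0% of all genes, and 6 without the block). Another 3 were higher (11.5%, against 17.6%, and 1 without the block). The lower ones included the potassium channel subunit gene Kcnab1 (−1.64) and the calcium channel gene Cacna1c (−1.42). Cacna1c lost its call without the block. Piezo1, a channel opened by membrane stretch, rose (0.44).

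Transcription factor genes of the fibroblast lineage were lower for 19 of 40 members and higher for 4, with 12 lower and 1 higher without the replicate block. Mef2c, a muscle and fibroblast regulator, had 744, 623 and 667 against 335, 278 and 189.5 (−1.36). Tcf21, the marker of resident cardiac fibroblasts, had 6009, 4233 and 3678 against 2387, 2253 and 968 (−1.35). No scramble library fell into the range of the H1.0 siRNA libraries for either gene. Foxc2 (−1.24) and Sox9 (−1.21) were lower as well. Wwtr1, which encodes the YAP partner TAZ, fell (−1.50). Of 25 markers of resting fibroblasts 11 were lower (44.0%), such as Htra3 (−3.01) and Ly6a (−2.34), and 4 higher (16.0%, near the 17.6% of all genes), such as Mfap5 (0.92). Without the block 6 were lower and 1 higher.

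Chromatin genes moved in both directions. Uhrf1, which guides maintenance methylation of DNA, had 1477, 1439.6 and 1454 against 371, 315 and 378 (−2.04). Dnmt1 (−1.22), the Polycomb methyltransferase gene Ezh2 (−1.20) and Suv39h1 (−1.15) fell, and Ezh1 (0.53) and the demethylase gene Kdm5a (0.32) rose. In total 9 of 27 methylation enzymes were lower (33.3%) and 5 higher (18.5%, near the 17.6% of all genes, and 3 without the block). Deacetylases and acetyltransferases were called lower for 5 of 22 (22.7%) and higher for 3 (13.6%), near the shares of all genes, with no member past 2-fold and 1 higher without scramble replicate 2 of the TGF-β groups. Of the BET proteins, which read acetylated histones, Brd3 fell from 2989, 2719 and 3062 to 1716, 1656 and 1963 (−0.72) and Brd2 rose (0.33). The architectural protein gene Hmga1 rose from 253, 244 and 271 to 729, 706 and 803 (1.54), while Hmgb2 (−1.34), Hmgn2 (−1.18) and the HP1 gene Cbx1 (−1.56) fell. Lmna, which encodes lamins A and C, rose (0.61).

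Interferon-stimulated genes were lower for 23 of 38 members and higher for 1, with a median of −0.70. This count rested on comparing libraries of the same replicate number. Isg15 had 2329.6, 2005 and 1349 in scramble replicates 1, 2 and 3 and 1717, 1049 and 555 in the matching H1.0 siRNA replicates (−0.89, adjusted p = 0.0015). Each H1.0 siRNA library was under its scramble partner, but the ranges of the groups overlapped. Ifit3 showed the same order, with 4337, 3122 and 1776 against 3046, 1347 and 623 (−1.04). Without the replicate block 1 of the 38 was called lower, Ifit2 (−1.36 in the blocked fit). Leaving out 1 library at a time gave 14 to 28, with 15 and 14 without scramble replicates 2 and 3 and 15 without H1.0 siRNA replicate 2 of the TGF-β groups. Irf1, the interferon regulatory factor gene, was the member that rose (0.60). Genes of antigen presentation were lower for 9 of 14 members (4 without the block) and higher for 2. B2m, the light chain of class I molecules, fell by 0.56 and H2-K1 by 0.99 on the log2 scale, and Tapbp rose (0.69). Macrophages also express these genes. Of 20 macrophage markers, 4 were lower (Cd14, C1qb, Mrc1 and Lyz2) and 3 higher (Laptm5, Adgre1 and Itgam). Without the block 2 remained lower (C1qb and Lyz2) and none was higher. Their part in the interferon and antigen presentation genes was not tested.

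The interferon response element is bound by interferon regulatory factors and STAT complexes. Its core (GAAANNGAAA, either strand) occurred upstream of 15 of 33 promoters of the interferon list (45.5%) and of 2.72% of all promoters searched. It is in capitals in the windows of Ifit3 at chr19:34583352-34583471 (plus strand) and Isg15 at chr4:156200820-156200939 (minus strand), which hold 2 and 3 matches, those of Isg15 overlapping.
Ifit3: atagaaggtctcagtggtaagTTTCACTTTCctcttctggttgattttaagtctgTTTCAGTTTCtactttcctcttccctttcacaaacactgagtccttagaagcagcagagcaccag
Isg15: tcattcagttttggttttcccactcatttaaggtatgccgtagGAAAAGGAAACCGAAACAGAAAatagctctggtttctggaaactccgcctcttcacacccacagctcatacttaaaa

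Genes of lysosomes, ribosomes, respiration and the proteasome were called higher more often than lower, with small changes per gene. Of 30 lysosome genes 18 were higher and 1 lower, with a median of 0.30 (10 higher without the replicate block, 9 with an offset for transcript length, and 10 to 12 without scramble replicate 2 or 3 or H1.0 siRNA replicate 1 or 2 of the TGF-β groups). Lamp1, a protein of the lysosomal membrane, had 14436, 13139 and 13949 against 20532, 19686 and 20315 (0.54, SE 0.076), and Glb1, lysosomal β-galactosidase, had 1680.4, 1458 and 1521 against 2593, 2578 and 2235 (0.67). Both genes rose in every H1.0 siRNA library beyond the scramble range. Npc1, which exports cholesterol from the lysosome, was the member that fell (−0.58). Cytosolic ribosomal protein genes were higher for 33 of 82 members and lower for 1, with a median of 0.25. The higher count was 17 without the block and 20 with the length offset. It was 10 and 17 without scramble replicates 3 and 2, and 19 without H1.0 siRNA replicate 1 or 3, of the TGF-β groups. Oxidative phosphorylation genes were higher for 27 of 80 (13 with the length offset, 16 without scramble replicate 2 or 3 of the TGF-β groups) and lower for 3. Proteasome subunits were higher for 10 of 31 and lower for none, with 6 higher without the block and 5 or 6 without scramble replicate 1 or 3 or H1.0 siRNA replicate 1 or 2 of the TGF-β groups.

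Of 24 antioxidant genes 7 rose (29.2%, against 17.6%), including catalase (Cat, 1.12), Srxn1 (from 679.8 to 1795 normalised counts) and Prdx1 (0.70). Another 4 fell, including Prdx6 (−1.26), a share of 16.7% that was near the 16.0% of all genes. Of 20 glycolysis genes 6 fell (30.0%, against 16.0% of all genes) and 1 rose (5.0%, against 17.6%). The falls were led by the glucose transporter gene Slc2a1 (−1.32), with Pkm (−1.01) and Gapdh (−0.74) among them. Genes of cholesterol and fatty acid synthesis were higher for 6 of 33 and lower for 1, a higher share of 18.2% against 17.6% of all genes. The higher count was 14 in the 6 TGF-β libraries with the block, 10 without scramble vehicle replicate 3, and 2 or 3 without scramble replicate 2 or 3 or H1.0 siRNA replicate 1 or 2 of the TGF-β groups. Without TGF-β 22 of these 33 genes were called higher, with a median of 0.90, and none of them was called for the difference. Secretory chaperone genes were lower for 5 of 24 (20.8%, near the 16.0% of all genes, and 3 without the block), such as Pdia6 (−1.57) and Dnajb11 (−0.99). Ero1l rose (1.11). HOX genes were higher for 2 of 26 (none without the block) and lower for none.

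**Figure D3:**
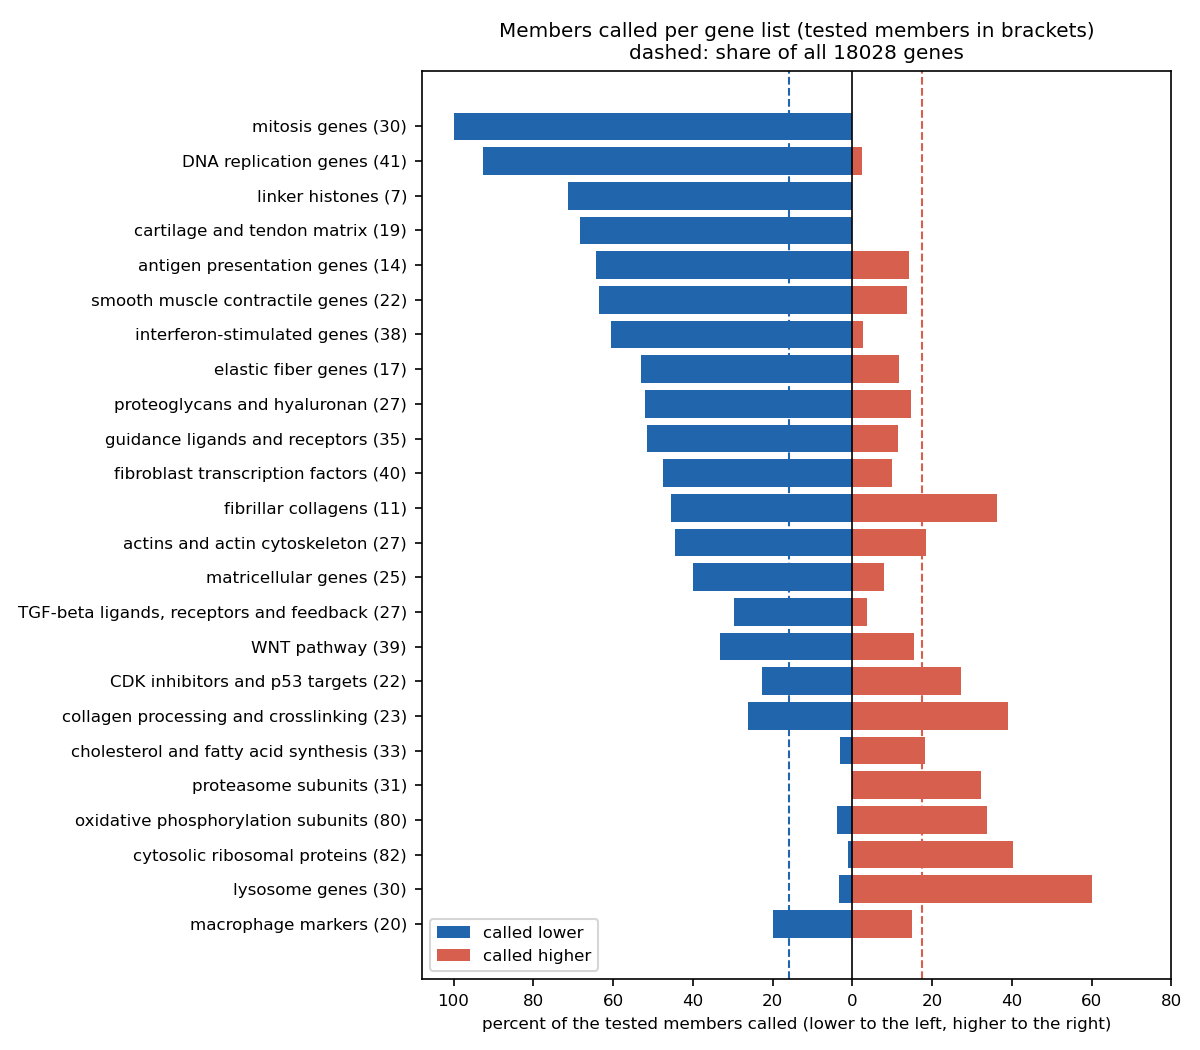
Percent of the tested members of each gene list called lower (blue, to the left) or higher (red, to the right) under TGF-β, with dashed lines at 16.0% and 17.6%, the shares of all 18028 genes. Mitosis and DNA replication genes extend furthest to the left, at 100% and 92.7%, and lysosome genes furthest to the right, at 60.0%.

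The same siRNA comparison in the vehicle-treated cultures called 6054 genes (33.6%), 2915 lower and 3139 higher. Of the 2879 genes lower under TGF-β, 2148 were also called lower without it, 1 was called higher and 730 were not called. Of the 3179 genes higher under TGF-β, 2318 were called higher without it, 20 lower and 841 not called. H1f0 itself fell by 1.66 on the log2 scale without TGF-β. A call in only one condition does not show a difference between conditions, so the difference of the siRNA effects was tested directly. It was called for 118 genes (0.655%), 44 with a more negative and 74 with a more positive effect under TGF-β, for 8 without the replicate block and for 11 to 186 when 1 library was left out. Every single library other than replicate 3 of both H1.0 siRNA groups moved that count by more than 1.5-fold.

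**Figure D4:**
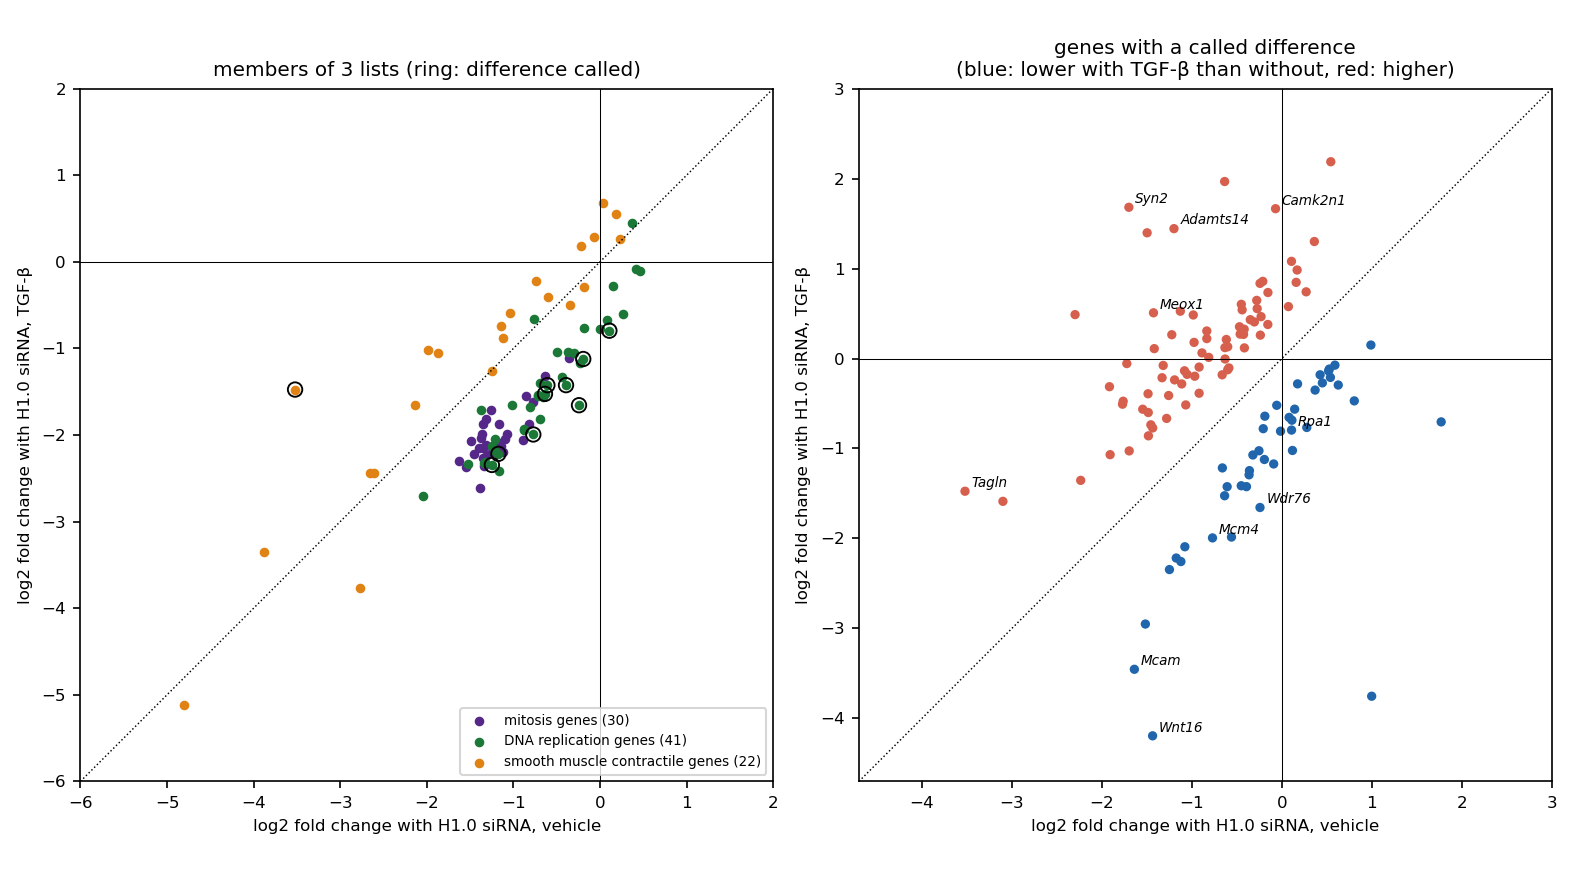
Log2 fold change with H1.0 siRNA under TGF-β (vertical axis) against that with vehicle (horizontal axis), for 93 members of 3 lists on the left and for genes with a called difference on the right, with a dotted line of equal change. Replication genes with a ringed point, such as Mcm4, lie under the line, and Tagln lies above it at −1.48 against −3.52.

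A part of the replication genes fell further with TGF-β than without it. Of 41, 9 had a called difference, all with the more negative effect under TGF-β: Mcm2, Mcm3, Mcm4, Pcna, Pold1, Rpa1, Rpa2, Lig1 and Wdr76. After vehicle, Mcm4 averaged 1421 ± 155 in the scramble and 834 ± 78.4 in the H1.0 siRNA libraries (SD, n = 3 each). After TGF-β the averages were 2727 ± 169 and 685 ± 35.5. The log2 fold changes were −0.77 and −1.99, which differed by −1.22 (SE 0.13, adjusted p = 0.0021). The scramble cultures had more Mcm4 with TGF-β than with vehicle and the H1.0 siRNA cultures did not. Pcna differed by −0.82 and Ccnd1 by −0.77 in the same direction. None of the 30 mitosis genes was called for the difference, although their median was −2.07 with and −1.28 without TGF-β. The single strand binding gene Rpa1 was called lower under TGF-β (−0.80) and not called without it (0.11). Boc, a hedgehog co-receptor gene, changed from 3101, 3466 and 2405 to 1486, 1961 and 1070.3 under TGF-β (−1.02) and had a log2 fold change of 0.12 after vehicle, which differed by −1.14 (adjusted p = 0.0026). Without the replicate block the difference stayed past the threshold for Mcm4 and Wdr76 and was lost for Pcna, Rpa1, Rpa2, Ccnd1 and Boc. Without scramble replicate 2 of the TGF-β groups that of Mcm4 was lost as well (adjusted p = 0.0129), and those of Pcna and Ccnd1 were lost when any 1 of 5 and of 6 libraries was left out.

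Other genes fell less under TGF-β than without it. Tagln, a calponin family gene of smooth muscle, went from 13438 ± 3103 to 1159.6 ± 219.7 after vehicle (SD, n = 3 each). After TGF-β it went from 46126, 45603 and 46688 to 14500, 16146 and 19546, and the log2 fold changes differed by 2.05 (SE 0.22, adjusted p = 0.0021). For Acta2 the difference of 0.75 was not called (adjusted p = 0.03), nor was that of Postn (−0.35, adjusted p = 0.25). The chemokine gene Cx3cl1 fell by 0.56 with and by 1.55 without TGF-β. Ccn2, a matricellular gene induced by TGF-β, fell by 1.08 without TGF-β and had 80086, 74620 and 101340 against 74873, 65898 and 92352 with it, where it was not called (−0.14, adjusted p = 0.28), and the effects differed by 0.95 (adjusted p = 0.0064). Thbs1, which can activate latent TGF-β, fell by 1.92 without TGF-β and was not called with it (−0.31), a difference of 1.60 (adjusted p = 0.0079). Without the replicate block the difference of Tagln remained called, and those of Cx3cl1, Ccn2 and Thbs1 did not. The Tagln difference lost its call without scramble replicate 2 or 3 of the TGF-β groups (adjusted p = 0.013 and 0.0117), and those of Ccn2 and Thbs1 when any 1 of 10 libraries was left out.

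Some genes took opposite signs. The difference was called for 36 genes whose estimate was above 0 with and under 0 without TGF-β, and for 18 with the reverse. Syn2, the gene for a synaptic vesicle protein, fell from an average of 136 to 42.6 after vehicle and rose from 147, 95.1 and 133 to 451, 325 and 429.5 under TGF-β. It was called in both comparisons, and the difference was 3.38 (SE 0.28, adjusted p = 9.4e-04). When only protein-coding transcripts were summed, the call under TGF-β and that of the difference (adjusted p = 0.0647) were lost. Robo2 was called in opposite directions likewise (−1.50 without TGF-β), and its effects differed by 2.89. The log2 fold change of the growth factor gene Fgf9 was −1.13 without and 0.53 with TGF-β, and that of the immediate early gene Egr1 was −0.83 and 0.31. For these genes the call under TGF-β alone was lost when any of 3 (Fgf9) or 7 (Egr1) single libraries was left out.

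Genes called lower had the longer median span. Their median genomic span was 32800 bases, against 22480 for genes called higher and 19410 for all tested. Among genes with a mean count of 100 to 1000 the medians were 28230 (lower), 19150 (higher) and 20310 (all tested). With a mean count of 1000 or more they were 41790, 26160 and 31710. Within both classes genes called higher were thus shorter than all tested. In 5 equal groups of protein-coding genes ordered by span, the share called lower was 12.6%, 14.2%, 16.9%, 18.6% and 26.8% from the shortest to the longest. The share called higher was 17.2%, 21.4%, 23.4%, 20.9% and 15.0%. Counts differed between these groups too, with medians of 211.8 normalised counts among the shortest and 595.9 among the longest genes, and their part in the shares was not tested. By chromosome, the share called lower was highest on the X chromosome, at 22.2% of 639 genes. Neighbours were taken among the protein-coding genes tested. Of 1173 such genes at least 2-fold lower, 23.1% lay next to another gene at least 2-fold lower, and of all 16043 protein-coding genes 13.8% lay next to one. Histone genes on chromosome 13 accounted for the longest runs, and a run of 4 genes on chromosome 17 held class I genes of the H2-Q series, which are near copies of one another, so that the split of reads among them is uncertain.

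**Figure D5:**
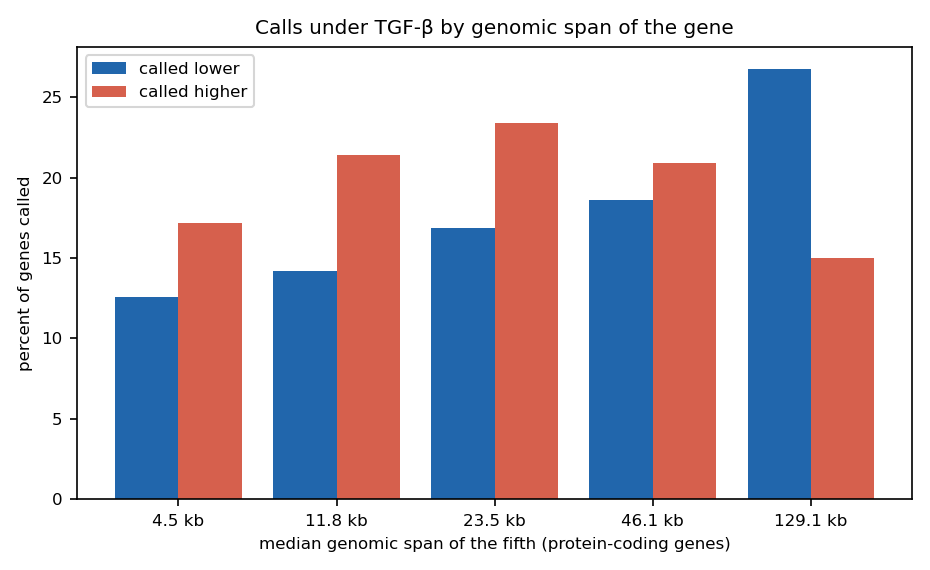
Percent of protein-coding genes called lower (blue) or higher (red) under TGF-β in 5 equal groups of genes ordered by genomic span, labelled by their median span in kilobases. The share called lower rises from 12.6% among the shortest to 26.8% among the longest genes, while the share called higher is lowest, at 15.0%, among the longest.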

How the data were processed

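RNA from 12 cultures of primary mouse cardiac fibroblasts was sequenced by the authors after depletion of ribosomal RNA, in paired-end reads. The authors quantified transcripts with Salmon against an mm10 index, and the deposited values are estimated counts per transcript, which need not be whole, with TPM. Estimated counts were summed per gene with the GENCODE M21 annotation of GRCm38 (115973 of 117135 transcripts matched, 35523 genes) and rounded. TPM as deposited was used for summed markers, for the offset for transcript length and to rank called genes by their difference between the groups.

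The 18028 genes whose counts over all libraries reached 10 were fitted with edgeR 4.0.16 (R 4.3.3, quasi-likelihood F test, TMM) as 4 groups of 3 with the replicate number as a block. P-values were adjusted over all genes tested by Benjamini-Hochberg, and an adjusted p under 0.01 was a call. The numbers were taken to pair the libraries because deviations from the group means correlated at 0.35 to 0.57 between the TGF-β groups for the same number and at −0.55 to 0.29 for other numbers (11453 genes). Over all groups 17 of 18 pairs of the same number were above 0.1, but some pairs of replicates 1 and 2 were too. Scramble replicate 1 of the TGF-β groups correlated at 0.35 with H1.0 siRNA replicate 1 and at 0.29 with replicate 2. Scramble vehicle replicate 1 correlated at 0.05 with H1.0 siRNA vehicle replicate 1 and at 0.17 with replicate 2. Without the block 2038 genes were called lower and 2343 higher. Normalised counts are TMM-scaled CPM multiplied up to the mean library total.

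The study's methods describe the 3 replicates as biological, from separate animals or isolations, and the labels do not name the animals behind each. Library totals ran from 19.9 M to 36.3 M, and a deeper library reduces counting error only. Replicates differed beyond counting noise, and no library was merged.

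The genes named were H1f0 and those with the widest changes in each direction among genes averaging at least 100 counts, without overlap or provisional names. Called genes with the largest difference in mean TPM were named too. So were up to 4 called members of each list per direction, those with the smallest p for the difference, and Postn, Acta2, Col1a1 and Fn1. Some results that the rule would name are not reported here. Further members were named after their values were seen, in particular genes that were not called. The comparison and the 67 gene lists were chosen with earlier results of these data known, so a list's count is no independent evidence of its direction. The mural, cell identity and muscle lists share members. So do other lists, such as the fibrillar collagen and cartilage lists (Col11a1), and the matricellular and YAP lists (Ccn2). Egr1 stands among both serum response factor targets and immediate early genes. Promoter windows are from RefSeq (GRCm38.p6). DESeq2 1.42.0, limma-voom 3.58.1, other scalings, filters, depths, length offsets, transcript sets and left-out libraries were tried as alternatives.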

Additional observations from a re-analysis of the deposited data

Results flagged for a closer look

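The effect of H1.0 siRNA differed with and without TGF-β for 118 genes by the test of the difference itself (edgeR's quasi-likelihood test, adjusted p under 0.01), and 3308 genes had an unadjusted p under 0.05. Below, a negative value is a more negative log2 effect of the siRNA under TGF-β than after vehicle. The 10 negative differences with the smallest p were those of Wdr76 (−1.41), Mcm4 (−1.22), Rpa1 (−0.90), Boc (−1.14), Pcna (−0.82), Ccnd1 (−0.77), Nup85 (−0.66), Usp1 (−0.75), Ddhd1 (−0.93) and Rpa2 (−1.03). Wdr76, Mcm4, Rpa1, Rpa2 and Pcna belong to the replication list. Nup85 encodes a nuclear pore subunit, and Usp1 a deubiquitinase of the DNA damage response. The 10 positive differences were those of Pcdh19 (1.07), Gpr153 (1.47), Syn2 (3.38), Rapgef3 (0.93), Robo2 (2.89), Cx3cl1 (0.98), Egr1 (1.14), C1qtnf7 (1.15), Fgf9 (1.65) and Tagln (2.05). Of these 20 differences, those of Wdr76, Mcm4, Syn2, Rapgef3, Robo2 and Tagln remained called without the replicate block. Of these 6, Wdr76 and Robo2 kept the call in every alternative tried, Mcm4 lost it without scramble replicate 2 of the TGF-β groups (adjusted p = 0.0129) and Tagln without scramble replicate 2 or 3 (0.013 and 0.0117). Syn2 lost it with protein-coding transcripts only (0.0647), and Rapgef3 with the length offset (0.0308).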

How the results depend on the processing

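The count of genes called lower under TGF-β (2879) was 1689 in the 6 TGF-β libraries with no replicate block, and that of genes called higher (3179) was 1630 there and 2080 with an offset for transcript length. Genes at least 2-fold higher (399) numbered 241 in the 6 libraries with no block. In the other settings these counts, those of genes at least 2-fold lower and those without TGF-β moved by less than 1.5 times. With no replicate block and all 12 libraries 2038 genes were lower and 2343 higher. The count for the difference of the siRNA effects (118) was 8 with no replicate block, 199 with no low count filter, 40 with the length offset, 56 with only protein-coding transcripts, 590 with DESeq2, 608 at an adjusted p under 0.05 and 11 to 186 when a library was left out. The cause was not tested. The share of calls that were higher lay between 46.3% and 53.5%.

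Of 275 gene values in the text, 223 kept their direction and side of the threshold without the block and 52 lost their call. Under TGF-β these were Acan, Adgre1, Ago4, Ankrd1, Bmp4, Boc, Cacna1c, Cd14, Clec3b, Cnn3, Col1a2, Col3a1, Col6a1, Col6a2, Cx3cl1, Dusp4, Egr1, Eln, Fgf7, Fgf9, Fosl1, Gpc3, Ifit3, Isg15, Itgam, Laptm5, Mrc1, Myh11, Myh9, Mylk, Nid2, Rrm1, Sfrp2, Tgfbr1, Timp1 and Tlr3. The rest were differences between the conditions. With the length offset Adgre1, Ago2, Ago4, Cnn3, Col11a2, Egr1, Fgf9, Laptm5 and Megf11 lost their call, with RLE size factors Cnn3, Egr1, Laptm5 and Myh9, and with limma-voom Laptm5. DESeq2 called Col1a1, Tgfbr2 and the difference of Acta2 as well and lost Egr1. With TMM free of the most abundant genes every one of the 275 kept its call. Signs turned for genes that were not called: Bax (−0.018 with the length offset), Rfc2 (0.15) and Tnni3 (−0.52) with only protein-coding transcripts, and Hist1h1e (−0.099 to 0.018 when a library was left out, above 0 without scramble replicate 3 or H1.0 siRNA replicate 2 of the TGF-β groups).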

Other observations

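Basement membrane genes split between lower and higher calls under TGF-β. Of 22 collagen, laminin and nidogen genes of this layer, 9 were lower (5 without the replicate block) and 5 higher (none without the block, and 2 or 3 without scramble replicate 2 or 3 or H1.0 siRNA replicate 1 or 2 of the TGF-β groups), against 16.0% and 17.6% of all genes tested. Lamb1, the laminin β1 chain, had normalised counts of 9334.6, 11165 and 13218 in the scramble and 3951.5, 4973.7 and 5115.6 in the H1.0 siRNA libraries (log2 fold change −1.26). No H1.0 siRNA library reached the scramble range. The anchoring fibril collagen Col7a1 (−2.20) and the laminin chain Lama4 (−0.95) fell as well, and the nidogen Nid2 rose (0.95). Of 20 YAP and TEAD genes 6 were lower (30.0%, and 3 without the block), among them the target Ankrd1 (−1.35). Another 3 were higher (15.0%, near the 17.6% of all genes), among them Vgll3 (0.44). Of 22 immediate early genes 3 were lower (13.6%, near the 16.0% of all genes, and 1 without the block), with Fosl1 at −1.50. In the other direction 6 were higher (27.3%, and 3 without the block or without scramble replicate 3 of the TGF-β groups), with the phosphatase gene Dusp4 at 0.92 and the antiproliferative Btg2 at 1.03. Of 19 complement genes 6 were lower (31.6%, and 4 without the block), such as the inhibitor Cd55 (−1.42), and 1 was higher (5.3%). Aldh1a2, which makes retinoic acid and marks the epicardium, fell (−2.40) and was the sole call among 12 mesothelial and epicardial markers.

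Of 19 genes that act in RNA interference or sense foreign RNA, 6 were lower (31.6%, against 16.0% of all genes) and 1 higher (5.3%, against 17.6%). Without the block, or without H1.0 siRNA replicate 2 of the TGF-β groups, 3 were lower. The Argonaute genes Ago1 (−1.08, a call lost when any 1 of 3 libraries was left out) and Ago2 (−0.48), whose proteins load small RNAs, were lower, Ago4 was higher (0.64), and Tlr3, a receptor for double-stranded RNA, was lower (−0.67). The untransfected state was not analysed here, and the part of the reagent in these values was not tested.

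A few calls rested on 1 library or on a group at 0. Of the genes called higher under TGF-β 2 had counts in 1 library of the comparison only, Gm6565 in H1.0 siRNA replicate 2 (160.4) and Rpl10a-ps1 in H1.0 siRNA replicate 3 (720.8). All scramble libraries were at 0 for 9 of the higher calls, and all H1.0 siRNA libraries for 8 of the lower calls. Gm28439 was among the latter, with 1545.2, 1045.2 and 2051.9 normalised counts in the scramble libraries given TGF-β and 1564.6, 5006.3 and 0 in the H1.0 siRNA libraries given vehicle.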
